A study of Mus musculus with 6 samples.

Results

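Of 39 listed genes of the ATF4 response and of the serine and amino acid supply it governs, 35 were among the 18001 genes measured after silencing of Aldoa, the gene of the glycolytic enzyme aldolase A. The list holds known genes of this response, was put together with earlier results of these data known, and was matched by gene symbol, and Atf3, Slc7a5, Slc6a9 and Vldlr were not analysed here. The cells were NIH/3T3, a mouse line of immortalized fibroblasts, and were treated with pooled siRNAs to Aldoa (siAldoa) or with non-targeting siRNAs (siCtrl). Poly(A) RNA was sequenced 48 h later from 3 replicates of each group, all grown in DMEM with fetal calf serum. Both groups were transfected, and the silencing was transient, in a mixed population of cells, with no genetic loss of Aldoa.

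Aldoa itself was at 521.5, 536 and 545 CPM in siCtrl replicates 1, 2 and 3 and at 62.9, 69.2 and 72.01 CPM in siAldoa replicates 1, 2 and 3, which is 12.7% of the control mean. Values are given in this order throughout, in CPM (read counts scaled to library size by the authors), and each library held 3692341 to 3771129 recovered reads. In both groups, replicates 1 and 2 resembled each other more than replicate 3 (chi-square per degree of freedom 1.11 and 1.12, against 2.07 to 3.24 with replicate 3). Read counting alone would give about 1, so replicates 1 and 2 differed by little more than that. Whether they are as independent of each other as of replicate 3 was not tested. The 8 fibroblast markers examined lay between 19.6 and 5080 CPM, with sums of 13070 to 13610 CPM in siCtrl and 10800 to 11480 CPM in siAldoa. These sums are carried by Col1a1, Col1a2 and Vim, which fell like S100a4 (log2 fold changes -0.33, -0.45, -0.22 and -0.17), whereas Pdgfrb, Fn1 and Thy1 rose (1.14, 0.30 and 0.23) and Col3a1 was at -0.18 without passing the threshold. The 6 markers of epithelial, blood and endothelial cells lay between 0 and 7.39 CPM, with sums of 15.1 to 17.5 CPM in siCtrl and 5.76 to 9.17 CPM in siAldoa. Both epithelial markers, Cdh1 and Krt8, were lower past the threshold (log2 fold changes -1.01 and -0.86, limma adjusted p = 0.0071 and 0.045), and the others did not pass it. The part of these marker levels in the results was not tested. In RNA from whole cultures, less RNA per cell and fewer cells of a type cannot be told apart.

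ATF4 is a transcription factor whose translation goes up when the initiation factor eIF2 is phosphorylated by one of a small family of kinases. Among these are GCN2 (Eif2ak4), which senses uncharged tRNA when amino acids run short, and PERK (Eif2ak3), which senses unfolded protein in the endoplasmic reticulum. ATF4 pairs with other bZIP proteins and activates genes for amino acid synthesis, amino acid uptake, tRNA charging and stress feedback. In proliferating fibroblasts, serine is made from the glycolytic intermediate 3-phosphoglycerate, downstream of aldolase, by PHGDH, PSAT1 and PSPH. Serine then feeds mitochondrial folate metabolism through SHMT2, MTHFD2 and MTHFD1L.

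ATF4 dimers with C/EBP proteins are known to bind a composite sequence, the C/EBP-ATF response element. Its letters TGATGNAAN were searched on both strands of RefSeq promoter windows (build GRCm38.p6), which span 250 bases before to 50 bases after each gene start. The stricter form TGATGCAAT is a case of the same letters, so each strict match is counted in both. Windows were given for 31 of the 35 genes (39 windows), and 9 genes held the element, which is 29.0% of them. Among all genes of the table with a window, 324 of 11192 (2.89%) held it, and 1215 of 27025 (4.5%) in the whole reference. The strict form stood in the windows of Fgf21, Nupr1 and Pycr1, 3 of 31 genes (9.68%) against 17 of 11192 (0.152%). Many of the listed genes are textbook ATF4 targets, so these shares describe how the list was put together, and a match of letters is not a measured binding site.

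The stretches around the elements are shown because genes that carry them moved in both directions. Each is written 5′ to 3′ along the gene, with the element in capitals.
Asns: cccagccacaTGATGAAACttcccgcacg
Pycr1: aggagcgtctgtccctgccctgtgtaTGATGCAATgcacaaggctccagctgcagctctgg
Chac1: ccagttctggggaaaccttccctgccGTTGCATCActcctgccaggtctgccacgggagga
Slc1a4: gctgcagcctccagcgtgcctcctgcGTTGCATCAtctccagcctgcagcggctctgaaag
Fgf21: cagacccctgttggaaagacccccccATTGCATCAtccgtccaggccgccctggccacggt
Trib3: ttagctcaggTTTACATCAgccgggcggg
Nupr1: aaagggccagATTGCATCAgacagggctt
Slc7a11: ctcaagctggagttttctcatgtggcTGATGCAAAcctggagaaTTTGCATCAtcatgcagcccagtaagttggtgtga
Jdp2: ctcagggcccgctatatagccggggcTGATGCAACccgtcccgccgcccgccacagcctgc

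The stretches lie at chr6:7693214-7693242 (- strand) for Asns, chr11:120643817-120643877 (- strand) for Pycr1, chr2:119351022-119351082 (+ strand) for Chac1, chr11:20332684-20332744 (- strand) for Slc1a4 and chr7:45615596-45615656 (- strand) for Fgf21. Those of the other genes are at chr2:152344029-152344057 (- strand) for Trib3, chr7:126625563-126625591 (- strand) for Nupr1, chr3:50443627-50443705 (- strand) for Slc7a11 and chr12:85599357-85599417 (+ strand) for Jdp2. Counted from the RefSeq start, the element began at position -23 in Asns, -103 in Pycr1, -194 in Chac1, -5 in Slc1a4 and -140 in Fgf21. It began at 13 in Trib3, -111 in Nupr1 and -33 in Jdp2. These positions hold for the RefSeq starts only. In GENCODE annotation the 29 bases printed for Asns and the 29 for Nupr1 all lie in exons of these genes. Of the 61 bases printed for Slc1a4, 30 are exonic, and the whole stretch of Trib3 lies after its RefSeq start. In Slc7a11 the window held 2 elements, on opposite strands, of which the first began at -66. Of the 9 genes, Asns and Pycr1 fell in siAldoa, Chac1 and Slc1a4 rose, Fgf21 passed the threshold upwards on very few reads, and Trib3, Nupr1, Slc7a11 and Jdp2 did not pass it. Psat1, Phgdh and Shmt2, which fell, and Slc38a2, which rose, had no such letters in their windows.

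The 35 genes did not move as a single block upon Aldoa knockdown. Groups were compared with limma on log2(CPM + 1), and a gene was called when its p-value, adjusted by the Benjamini-Hochberg method over all 18001 genes, was under 0.05. Fold changes are on this log2 scale, and the added 1 makes the change of scarce genes look smaller. By this rule 16 of the 35 genes were lower in siAldoa (45.7%) and 9 higher (25.7%), while 10.0% of all genes were called lower and 10.4% higher. Well expressed genes are called more often: among the 10059 genes with a mean of at least 10 CPM the shares were 16.6% and 15.9%, and 16 of the 32 listed genes at that level were lower and 7 higher (21.9%). The median log2 fold change was -0.16 over the 35 genes and -0.0023 over all genes. The groups did not overlap, with siAldoa below siCtrl, in 16 of the 35 genes and, with siAldoa above, in 10, where these shares were 17.1% and 16.7% over all genes. Without replicate 1, 2 and 3 of both groups, 13, 11 and 11 listed genes were lower and 5, 4 and 3 higher.

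**Figure D1:**
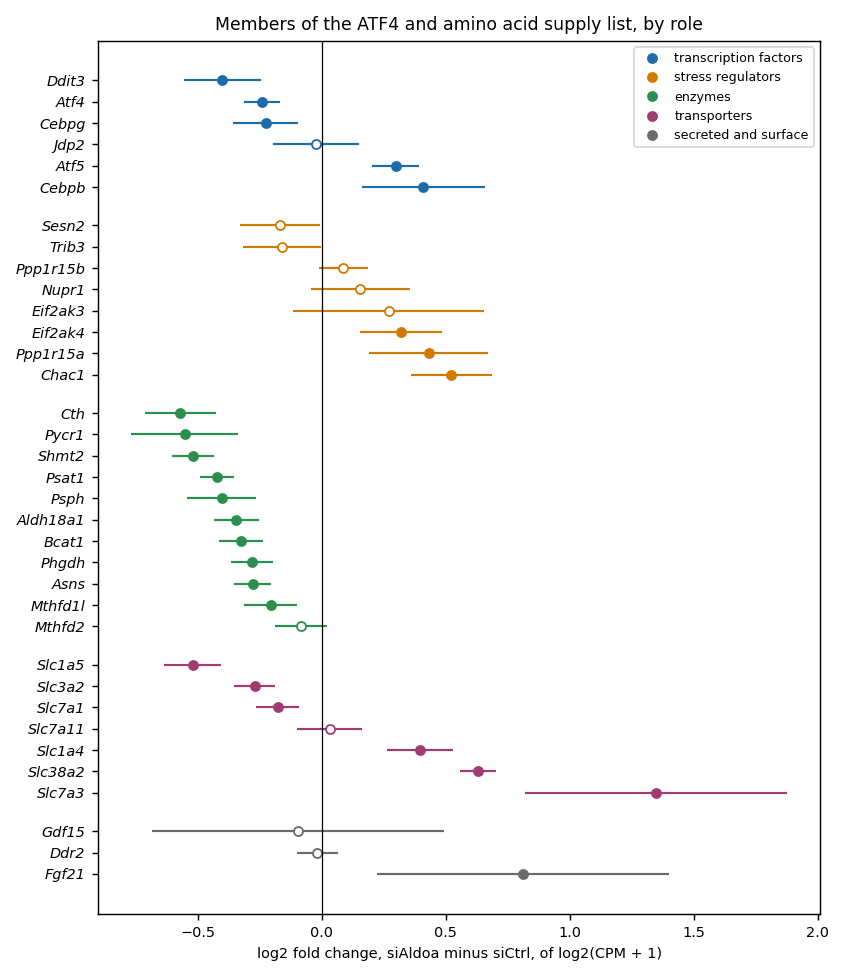
Log2 fold change of log2(CPM + 1), siAldoa minus siCtrl, for the 35 genes by role, with 95% confidence intervals from limma as lines and filled points for genes past an adjusted p of 0.05. All 11 enzymes lie left of zero, 10 of them filled, while the transporters spread from -0.52 for Slc1a5 to 1.35 for Slc7a3.

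The enzymes of serine, one-carbon and amino acid synthesis were lower as a group. Of 11 enzymes, 10 fell (90.9%), none rose, and the median log2 fold change was -0.34. Among all genes with a mean of at least 10 CPM, 16.6% fell and 15.9% rose. In each of the 10, every siAldoa library was below every siCtrl library. Per kb of annotated exon, the siCtrl levels of the enzymes ran from 12.3 ± 1.06 CPM per kb for Pycr1 (SD, n = 3) to 281 ± 7.94 CPM per kb for Psat1. The enzyme calls were 9, 7 and 8 without replicate 1, 2 and 3 of both groups, 9 without siAldoa replicate 2 and 10 without any other single library. Without a mean-variance trend in limma 5 enzymes were called, and the adjusted p was 0.053 for Phgdh, 0.056 for Asns, 0.052 for Psph and 0.060 for Pycr1.

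The serine synthesis pathway fell at each of its steps. Phgdh (ENSMUSG00000053398, chromosome 3 of GRCm38 from 98313170 to 98339990), which encodes the enzyme of the first step, was at 308, 313.5 and 319.9 CPM in siCtrl and 262, 259 and 254 CPM in siAldoa (log2 fold change -0.28, standard error 0.041, adjusted p = 1.9e-05). Psat1 (ENSMUSG00000024640, chromosome 19 of GRCm38 from 15904678 to 15947337), the transaminase of the second step and the most abundant of the 11 enzymes per kb, was at 1192, 1233 and 1166 CPM in siCtrl and 865, 915 and 901 CPM in siAldoa (log2 fold change -0.42, standard error 0.033, adjusted p = 1.5e-09), 74.7% of the control. The libraries of each group lay close together for both genes, with a wide gap between the groups. Psph, whose product releases serine in the last step, was at 105.5, 110.2 and 124 CPM in siCtrl and 89.9, 82.3 and 83.8 CPM in siAldoa (log2 fold change -0.40, standard error 0.067, adjusted p = 8.4e-05). Without replicate 2 or without replicate 3 of both groups the adjusted p of Psph was 0.058 and 0.067.

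Reads of some of these genes are uncertain because the table also lists near-identical copies, and how reads that fit several places were counted is not given in the sources used here. Phgdh had 9 such copies (at least 90% identical over at least 200 bases), Psat1 had Gm12611 and Shmt2 had Gm15544. Summed with its copies, Phgdh was at 477, 482 and 473 CPM in siCtrl and 397, 385 and 391 CPM in siAldoa, 81.9% of the control, beside 82.3% for Phgdh alone. The sum of Psat1 and Gm12611 was at 74.8% and that of Shmt2 and Gm15544 at 70.5% of the control, beside 74.7% and 69.6% for the genes alone. The decrease was of similar size with the copies counted in. Exons of Psph overlap those of Cct6a on the opposite strand over 10.4% of their length. Cct6a was at 588 CPM in siCtrl and 514 CPM in siAldoa (log2 fold change -0.19), also lower, and its part in the reads of Psph was not tested.

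In the mitochondrial folate branch, the members differed in size of change. Shmt2 (ENSMUSG00000025403, chromosome 10 of GRCm38 from 127517123 to 127522444), which splits serine into glycine and a folate-bound carbon, was at 401, 374.5 and 382 CPM in siCtrl and 265, 267 and 274 CPM in siAldoa (log2 fold change -0.52, standard error 0.041, adjusted p = 2.1e-09). Mthfd1l, which releases formate, was at 177, 180.3 and 168.5 CPM in siCtrl and 152, 145 and 159 CPM in siAldoa (log2 fold change -0.20, standard error 0.052, adjusted p = 0.0057). This smaller decrease was past the threshold in the full comparison, and its adjusted p was 0.052 without siAldoa replicate 2, 0.13 and 0.17 without replicate 1 and 2 of both groups and 0.14 without the mean-variance trend. Mthfd2, which acts between them, was at 218, 212 and 199.5 CPM in siCtrl and 209.7, 190.0 and 195 CPM in siAldoa, with overlapping groups (log2 fold change -0.08, standard error 0.050, adjusted p = 0.29). The 95% confidence interval of its log2 fold change, -0.19 to 0.02, does not reach the values of Shmt2 or Psat1, although the difference between genes was not tested.

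Enzymes of asparagine, proline, cysteine and branched-chain amino acid metabolism fell as well. Asns (ENSMUSG00000029752, chromosome 6 of GRCm38 from 7675169 to 7693254), asparagine synthetase and a classical reporter of ATF4 activity, was at 549, 531 and 524 CPM in siCtrl and 430.2, 445 and 446 CPM in siAldoa (log2 fold change -0.28, standard error 0.037, adjusted p = 4.2e-06). Aldh18a1, which starts proline synthesis from glutamate, was at 336, 328.5 and 317 CPM in siCtrl and 247.5, 258 and 267 CPM in siAldoa (log2 fold change -0.34, standard error 0.043, adjusted p = 2.7e-06), and Pycr1, which ends it in mitochondria, was at 49.6, 51.7 and 43.6 CPM in siCtrl and 38.6, 31.0 and 28.8 CPM in siAldoa (log2 fold change -0.55, standard error 0.10, adjusted p = 0.00040). Both ends of the proline pathway thus fell, Pycr1 with more spread between its siAldoa libraries. Without replicate 2 or replicate 3 of both groups the adjusted p of Pycr1 was 0.13 and 0.085. Cth, cystathionine gamma-lyase, which makes cysteine, had the lowest log2 fold change of all 35 genes, with 83.0, 84.8 and 81.0 CPM in siCtrl and 53.4, 58.0 and 55.2 CPM in siAldoa (log2 fold change -0.57, standard error 0.069, adjusted p = 1.4e-06). Bcat1, the cytosolic branched-chain aminotransferase, was at 285, 288 and 279 CPM in siCtrl and 223, 225 and 232 CPM in siAldoa (log2 fold change -0.32, standard error 0.042, adjusted p = 4.1e-06). For Cth and Bcat1 the spread within each group was a small part of the gap between them.

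**Figure D2:**
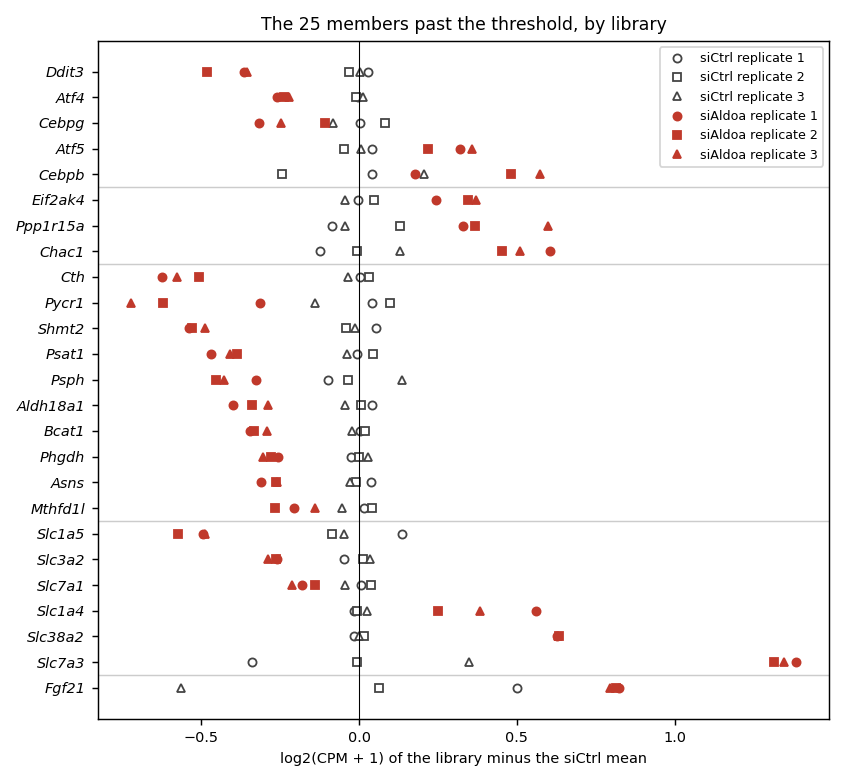
Each row shows 1 of the 25 genes past the threshold, each open marker a siCtrl library and each filled marker a siAldoa library, as log2(CPM + 1) minus the siCtrl mean of that gene. Filled and open markers are apart in every row but that of Cebpb, where siAldoa replicate 1 (32.9 CPM) lies below siCtrl replicate 3 (33.6 CPM).

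Amino acid transporters went both ways. Of 7 transporters measured, 3 fell and 3 rose (42.9% each), and the median log2 fold change was 0.032. Slc7a3, among those that rose, had a mean under 10 CPM. Among all genes with a mean of at least 10 CPM, 16.6% fell and 15.9% rose. Slc1a5 (ENSMUSG00000001918, chromosome 7 of GRCm38 from 16781340 to 16798274), a neutral amino acid exchanger that carries glutamine, was at 239.7, 206 and 211 CPM in siCtrl and 155, 146 and 155 CPM in siAldoa (log2 fold change -0.52, standard error 0.055, adjusted p = 2.3e-07). Slc3a2, the heavy chain that pairs with several SLC7 light chains, was at 329.8, 344 and 349 CPM in siCtrl and 284, 284 and 279 CPM in siAldoa (log2 fold change -0.27, standard error 0.041, adjusted p = 2.6e-05). Slc7a1, a carrier of cationic amino acids such as arginine, was at 319, 325 and 308 CPM in siCtrl and 279.9, 288 and 274 CPM in siAldoa (log2 fold change -0.18, standard error 0.042, adjusted p = 0.0032). In all 3 genes the siAldoa libraries were below the siCtrl libraries, with the largest gap for Slc1a5. For Slc7a1 the adjusted p was 0.10, 0.068 and 0.058 without replicate 1, 2 and 3 of both groups. Without a mean-variance trend in limma the adjusted p was 0.158 for Slc7a1 and 0.060 for Slc3a2.

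Against these stood a rise of Slc38a2 (ENSMUSG00000022462, chromosome 15 of GRCm38 from 96687392 to 96699730), which encodes SNAT2, a sodium-coupled carrier of small neutral amino acids known to be induced in amino acid shortage. It was at 376, 385 and 381 CPM in siCtrl and 588, 591 and 589 CPM in siAldoa (log2 fold change 0.63, standard error 0.035, adjusted p = 6.8e-12), or 155% of the control. Every siAldoa library was above every siCtrl library, and this was the lowest adjusted p of the 35 genes. The small spread of the siAldoa libraries comes from only 3 values and does not show how precisely the level is known. Slc1a4, another neutral amino acid exchanger of the same family as Slc1a5, was at 108.5, 109 and 112 CPM in siCtrl and 162, 131 and 143.5 CPM in siAldoa (log2 fold change 0.40, standard error 0.065, adjusted p = 7.0e-05). Its siAldoa libraries were spread more widely, and without replicate 3 of both groups the adjusted p was 0.11. Slc1a4 was also not called without a mean-variance trend in limma.

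Slc7a3, a cationic amino acid carrier, was scarce, with 4, 6 and 9 reads in siCtrl and 22, 21 and 22 reads in siAldoa. This is 1.10, 1.64 and 2.38 CPM in siCtrl and 5.94, 5.61 and 5.76 CPM in siAldoa (log2 fold change 1.35, standard error 0.26, adjusted p = 0.00039), and DESeq2 gave it no adjusted p. The groups were apart, and 3 reads stand for 0.786 to 0.822 CPM at this depth. Without replicate 2 of both groups the adjusted p was 0.054. Slc7a11, the cystine carrier, was at 80.8, 80.4 and 87.3 CPM in siCtrl and 84.7, 85.5 and 83.8 CPM in siAldoa, with overlapping groups (log2 fold change 0.03, standard error 0.063, adjusted p = 0.79) and a confidence interval of -0.10 to 0.16 for the log2 fold change. Its partner Slc3a2 fell while Slc7a11 did not pass the threshold, and the difference between the 2 genes was not tested.

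**Figure D3:**
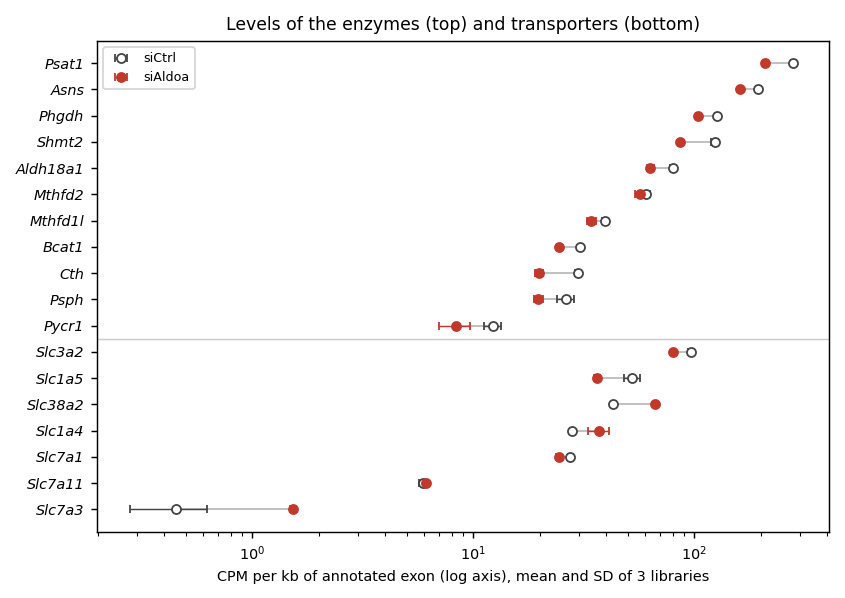
Levels of the 11 enzymes and 7 transporters in CPM per kb of annotated exon on a log axis, with open points for the siCtrl mean, filled points for the siAldoa mean and bars for the SD of 3 libraries. The enzymes shift left in siAldoa, from 281 to 210.0 CPM per kb for Psat1, whereas Slc38a2 shifts right from 43.0 to 66.7 CPM per kb and changes places with Slc1a5.

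Per kb of annotated exon, Slc3a2 was the most abundant transporter in both groups (96.6 ± 2.80 CPM per kb in siCtrl and 80.0 ± 0.843 CPM per kb in siAldoa, SD, n = 3). In siCtrl it was followed by Slc1a5 at 52.4 ± 4.38 and Slc38a2 at 43.0 ± 0.484 CPM per kb, and in siAldoa by Slc38a2 at 66.7 ± 0.181 CPM per kb, with Slc1a4 at 37.1 ± 4.04 and Slc1a5 at 36.4 ± 1.21 CPM per kb close together. Slc1a4 and Slc1a5 were within their spread in siAldoa, whereas in siCtrl Slc1a4 was at 28.0 ± 0.427 CPM per kb, about level with Slc7a1 at 27.5 ± 0.771. These levels rest on the union of annotated exons, not on the transcripts the cells used.

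Among the transcription factors, Atf4 mRNA itself fell. Atf4 (ENSMUSG00000042406, chromosome 15 of GRCm38 from 80255184 to 80257541) was at 570.5, 567 and 576.5 CPM in siCtrl and 477, 485 and 489 CPM in siAldoa (log2 fold change -0.24, standard error 0.035, adjusted p = 1.5e-05), 84.7% of the control, with separate groups. Without a mean-variance trend in limma the adjusted p of Atf4 was 0.072, past the threshold no longer. Ddit3, which encodes CHOP, the bZIP factor tied to cell death in prolonged stress, was at 66.3, 63.5 and 65.1 CPM in siCtrl and 50.2, 46.2 and 50.5 CPM in siAldoa (log2 fold change -0.40, standard error 0.075, adjusted p = 0.00035). Without replicate 3 of both groups the adjusted p of Ddit3 was 0.051. ATF4 is controlled largely in translation, so its mRNA level is no measure of its protein, which was not measured here.

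Atf5, a close relative of Atf4, went the other way, with 248, 233 and 242 CPM in siCtrl and 301, 281 and 309 CPM in siAldoa (log2 fold change 0.30, standard error 0.046, adjusted p = 3.2e-05). The siAldoa libraries were all above the siCtrl libraries. The adjusted p of Atf5 was 0.063 without replicate 3 of both groups and 0.063 without a mean-variance trend in limma. The C/EBP partners were also divided. Cebpg, a dimer partner of ATF4, was at 123, 130.2 and 116 CPM in siCtrl and 98.5, 114 and 103 CPM in siAldoa (log2 fold change -0.23, standard error 0.063, adjusted p = 0.013), and Cebpb at 29.9, 24.4 and 33.6 CPM in siCtrl and 32.9, 40.9 and 43.7 CPM in siAldoa (log2 fold change 0.41, standard error 0.12, adjusted p = 0.016). These calls were less firm than those of the enzymes. The adjusted p of Cebpg was 0.061 without siCtrl replicate 1, 0.10 without siCtrl replicate 2, 0.11 without siAldoa replicate 1 and 0.077 without siAldoa replicate 3. That of Cebpb was 0.064 without siCtrl replicate 1, 0.15 without siCtrl replicate 2, 0.12 without siAldoa replicate 2 and 0.16 without siAldoa replicate 3. Without replicate 1, 2 and 3 of both groups it was 0.25, 0.077 and 0.17 for Cebpg and 0.090, 0.38 and 0.20 for Cebpb. Jdp2, a bZIP repressor, was at 46.8, 44.0 and 46.8 CPM in siCtrl and 48.3, 43.3 and 44.0 CPM in siAldoa, with overlapping groups (log2 fold change -0.02, standard error 0.084, adjusted p = 0.89).

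Of 8 stress regulators, none fell and 3 rose (37.5%), with a median log2 fold change of 0.21. Among all genes with a mean of at least 10 CPM, 16.6% fell and 15.9% rose. Only 1 stress regulator was higher with DESeq2, without a mean-variance trend in limma, or without replicate 1, 2 or 3 of both groups. Chac1 (ENSMUSG00000027313, chromosome 2 of GRCm38 from 119351229 to 119354381), which degrades glutathione and is a late target of ATF4 and CHOP, had the largest change, with 46.8, 50.9 and 56.1 CPM in siCtrl and 78.3, 70.3 and 73.3 CPM in siAldoa (log2 fold change 0.52, standard error 0.079, adjusted p = 2.6e-05). Ppp1r15a, which encodes GADD34, the phosphatase subunit that reverses eIF2 phosphorylation, was at 20.8, 24.4 and 21.4 CPM in siCtrl and 28.1, 28.9 and 34.0 CPM in siAldoa (log2 fold change 0.43, standard error 0.12, adjusted p = 0.0092). Eif2ak4, the GCN2 kinase, was at 43.0, 44.6 and 41.8 CPM in siCtrl and 51.3, 55.1 and 56.0 CPM in siAldoa (log2 fold change 0.32, standard error 0.080, adjusted p = 0.0054). In these 3 genes all siAldoa libraries were above all siCtrl libraries. For Ppp1r15a the adjusted p was 0.053 without siCtrl replicate 1 and 0.081 without siAldoa replicate 3, and 0.10, 0.071 and 0.19 without replicate 1, 2 and 3 of both groups. For Eif2ak4 it was 0.052, 0.077 and 0.12 without replicate 1, 2 and 3 of both groups. With DESeq2 on the recovered reads it was 0.058 for Ppp1r15a and 0.055 for Eif2ak4, and Cebpb and Cebpg were at 0.057 each.

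The other 5 regulators did not pass the threshold. Trib3, a pseudokinase that restrains ATF4 and is itself an ATF4 target, was at 69.3, 82.9 and 78.3 CPM in siCtrl and 73.1, 63.6 and 69.1 CPM in siAldoa (log2 fold change -0.16, adjusted p = 0.16). Sesn2, an ATF4 target that inhibits mTORC1 when leucine is low, was at 84.1, 74.7 and 70.1 CPM in siCtrl and 61.5, 70.8 and 71.0 CPM in siAldoa (log2 fold change -0.17, adjusted p = 0.15). Both had lower means in siAldoa with overlapping groups, and their unadjusted p-values from limma were 0.048 and 0.043. Nupr1, a small stress-induced chromatin protein, was at 34.5, 30.6 and 32.3 CPM in siCtrl and 34.5, 36.1 and 38.2 CPM in siAldoa (log2 fold change 0.16, adjusted p = 0.29), and Ppp1r15b, the constitutive counterpart of Ppp1r15a, at 172, 174 and 169 CPM in siCtrl and 178, 180.1 and 189.6 CPM in siAldoa (log2 fold change 0.09, adjusted p = 0.23). In both, the siAldoa libraries lay above the siCtrl libraries by little, and for Nupr1 the nearest pair was at 34.51 and 34.54 CPM. Eif2ak3, the PERK kinase, was scarce and variable, at 13.2, 13.9 and 7.94 CPM in siCtrl and 13.8, 15.2 and 12.8 CPM in siAldoa (log2 fold change 0.27, adjusted p = 0.36).

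The secreted hormones of the response were near the limit of detection. Fgf21, a metabolic hormone induced by ATF4, had 4, 2 and 0 reads in siCtrl and 6 reads in each siAldoa library (log2 fold change 0.81, standard error 0.28, adjusted p = 0.046). The call rests on these few reads, and it was lost with the replicate block (adjusted p = 0.062), with edgeR (adjusted p = 0.11) and without any single library except siCtrl replicate 1, with adjusted p-values of 0.10 and 0.24 without siCtrl replicates 2 and 3 and of 0.13, 0.12 and 0.12 without siAldoa replicates 1, 2 and 3. Gdf15, another stress hormone, had 6, 1 and 3 reads in siCtrl and 3, 3 and 2 reads in siAldoa, and a difference was not detectable at this depth. Ddr2, a collagen receptor of fibroblasts, was at 371, 395 and 390.5 CPM in siCtrl and 385, 375.5 and 382 CPM in siAldoa, with overlapping groups and a confidence interval of -0.10 to 0.06 for the log2 fold change.

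**Figure D4:**
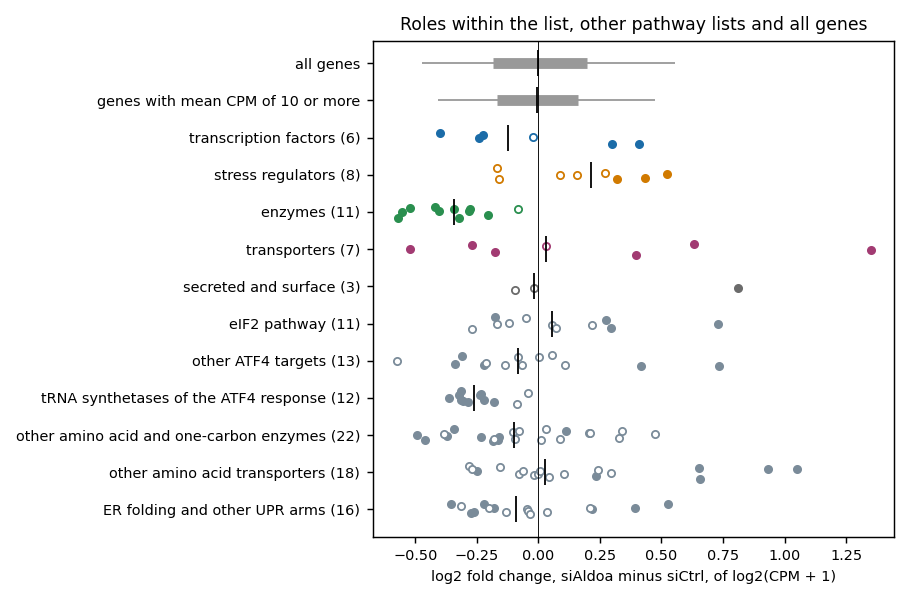
Log2 fold changes of log2(CPM + 1), siAldoa minus siCtrl, for the 5 roles, for 6 further lists of the same biology and for all genes, with filled points past an adjusted p of 0.05 and vertical ticks at medians. For all genes and for genes with a mean of at least 10 CPM the thick bar spans the middle quartiles and the thin line the 5% to 95% range, -0.471 to 0.557 and -0.409 to 0.473. The enzymes (median -0.34) and the tRNA synthetases (median -0.26) lie to the left, and the transporters reach far to both sides.

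Further genes of the pathway were taken from lists of the pathway, also written with earlier results of these data known. Their counts are to be read against the 16.6% lower and 15.9% higher among all genes with a mean of at least 10 CPM. Some of the lists also hold genes under that level, and over all 18001 genes the shares were 10.0% and 10.4%. Of 12 tRNA synthetases known as ATF4 targets, which charge tRNAs with amino acids, 10 fell and none rose, with a median log2 fold change of -0.26. The lowest were Aars, for alanine, at 579 ± 17.3 CPM in siCtrl and 449.6 ± 19.1 CPM in siAldoa (log2 fold change -0.36, adjusted p = 2.3e-07), Lars, for leucine, at 356 ± 7.08 CPM in siCtrl and 284.5 ± 6.96 CPM in siAldoa (log2 fold change -0.32, adjusted p = 2.3e-06) and Nars, for asparagine, at 597 ± 10.0 CPM in siCtrl and 479.7 ± 23.6 CPM in siAldoa (log2 fold change -0.31, adjusted p = 1.8e-06), all SD with n = 3. This count was 6 without replicate 1 of both groups and 3 without a mean-variance trend in limma. Of 13 other ATF4 targets, 3 fell (23.1%) and 2 rose (15.4%). Fam129a, Adm2 and Bbc3 among them had means under 10 CPM and were not called. Whether these shares differ from those of other genes was not tested. Eif4ebp1, an inhibitor of cap-dependent translation, was at 204 ± 6.02 CPM in siCtrl and 161 ± 5.64 CPM in siAldoa (log2 fold change -0.34, adjusted p = 1.5e-05), Pck2, a mitochondrial enzyme that makes phosphoenolpyruvate, at 151 ± 2.42 CPM in siCtrl and 122 ± 6.46 CPM in siAldoa (log2 fold change -0.31, adjusted p = 0.00017), and Xpot, which exports tRNA from the nucleus, at 263.5 ± 8.03 CPM in siCtrl and 226 ± 2.75 CPM in siAldoa (log2 fold change -0.22, adjusted p = 0.00063). Ddit4, an mTORC1 inhibitor, was at 58.9 ± 5.92 CPM in siCtrl and 79.2 ± 9.16 CPM in siAldoa (log2 fold change 0.42, adjusted p = 0.00078) and Vegfa, an angiogenic factor, at 55.1 ± 3.41 CPM in siCtrl and 92.2 ± 4.43 CPM in siAldoa (log2 fold change 0.73, adjusted p = 5.5e-08). Ddit4 and Vegfa are also known targets of HIF1. Without replicate 1 of both groups 1 of the 13 was lower and 1 higher.

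Among 22 other enzymes of amino acid and one-carbon metabolism, 8 fell (36.4%). Pycrl, a further enzyme that ends proline synthesis, was at 56.0 ± 4.99 CPM in siCtrl and 39.6 ± 5.15 CPM in siAldoa (log2 fold change -0.49, adjusted p = 0.00051), Bcat2, the mitochondrial branched-chain aminotransferase, at 40.2 ± 3.88 CPM in siCtrl and 29.2 ± 5.16 CPM in siAldoa (log2 fold change -0.46, adjusted p = 0.0060), and Gcsh, a subunit of the glycine cleavage system, at 126 ± 2.82 CPM in siCtrl and 96.9 ± 0.662 CPM in siAldoa (log2 fold change -0.37, adjusted p = 2.5e-05). The median log2 fold change of these 22 enzymes was -0.099. Without replicate 1, 2 and 3 of both groups 4, 2 and 3 of them were lower.

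Other amino acid transporters were again divided, with 1 of 18 lower (5.56%) and 5 higher (27.8%). Slc38a4, a relative of Slc38a2, was lower at 179.7 ± 4.76 CPM in siCtrl and 151 ± 9.64 CPM in siAldoa (log2 fold change -0.25, adjusted p = 0.0013). The glutamate and aspartate carrier Slc1a3 was at 63.6 ± 6.02 CPM in siCtrl and 133 ± 3.54 CPM in siAldoa (log2 fold change 1.05, adjusted p = 6.2e-11), a gap wider than the spread in either group. Slc1a2, another glutamate carrier, was scarce at 0.724 ± 0.169 CPM in siCtrl and 2.39 ± 1.03 CPM in siAldoa (log2 fold change 0.93, adjusted p = 0.019). Its call rests on 3, 3 and 2 reads in siCtrl and 5, 9 and 13 reads in siAldoa, and DESeq2 gave it no adjusted p. Slc36a1, a proton-coupled carrier of the lysosome, was at 30.6 ± 1.68 CPM in siCtrl and 48.8 ± 1.82 CPM in siAldoa (log2 fold change 0.66, adjusted p = 7.1e-06). The other genes that rose were Slc38a7, a glutamine carrier of the lysosome, at 28.1 ± 0.738 CPM in siCtrl and 44.8 ± 2.50 CPM in siAldoa (log2 fold change 0.65, adjusted p = 1.3e-05), and Slc6a6, the taurine carrier, at 202 ± 3.55 CPM in siCtrl and 238 ± 13.4 CPM in siAldoa (log2 fold change 0.23, adjusted p = 0.00087). Without replicate 2 or replicate 3 of both groups 3 transporters were higher and none lower.

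Of 11 genes that act on eIF2, 1 fell (9.09%) and 3 rose (27.3%), where 16.6% and 15.9% of genes with a mean of at least 10 CPM did. Impact, an inhibitor of GCN2, changed most, at 133.5 ± 6.98 CPM in siCtrl and 222 ± 17.6 CPM in siAldoa (log2 fold change 0.73, adjusted p = 1.8e-09). Eif2b2, a subunit of the eIF2 exchange factor, was at 44.4 ± 3.58 CPM in siCtrl and 54.7 ± 4.49 CPM in siAldoa (log2 fold change 0.29, adjusted p = 0.017), Eif2ak2, the PKR kinase, at 49.0 ± 6.01 CPM in siCtrl and 59.2 ± 3.50 CPM in siAldoa (log2 fold change 0.27, adjusted p = 0.029), and Eif2s3x, an eIF2 subunit, at 185 ± 4.87 CPM in siCtrl and 163 ± 8.85 CPM in siAldoa (log2 fold change -0.18, adjusted p = 0.015). These smaller calls were weak, since 1 gene was higher and 0 were lower without siCtrl replicate 3, without siAldoa replicate 2, without siAldoa replicate 3, or without any 1 replicate of both groups. Without siCtrl replicate 1 there was 1 gene higher and 1 lower, and without siCtrl replicate 2 none was lower. Exons of genes on opposite strands overlap in some of the listed genes, as for Cebpb with Tmem189 over 20.7% of its exon length (13.9 CPM in siCtrl) and Ddit3 with Mars over 3.97% (177 CPM in siCtrl), and the part of such reads was not tested.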

How the data were processed

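The authors aligned reads of directional poly(A) libraries to mm10 with Bowtie2 (version 2.2.7) and drew the same number at random from each sample. Gene counts were then scaled, and the deposited values are CPM of an effective library size. ERCC spike-in RNA was added to the lysis buffer in replicate 1 and after RNA extraction in replicates 2 and 3. A second table with the authors' fold changes and p-values was not used. Whether counting used strand, and the annotation release, are not given in the sources used here.

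Dividing each library by its smallest value above 0 gave whole reads (within 0.01) for 100% of values. The main test, two-sided and over all 18001 genes, was limma (version 3.58.1, under R version 4.3.3) on log2(CPM + 1), with the prior variance following mean expression. The recovered reads were tested with edgeR's quasi-likelihood test (version 4.0.16) and with DESeq2 (version 1.42.0). The study dropped genes under 12 reads across samples before testing, and the table here still held 1834 of them. Other alternatives were a pseudocount of 0.1, a mean CPM of at least 1, TMM factors, no mean-variance trend, a replicate block and libraries left out. The tests were tested on simulated data. Copies were searched with blastn (version 2.17.0), and coordinates and exon lengths come from GENCODE annotation of GRCm38, the same build as mm10.

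The members and lists were chosen with earlier results of these data known. Named are Aldoa, every listed gene, members of any count of 5 or fewer and, from each further list, up to 3 lowest and 3 highest past the threshold, and not every gene under this rule is reported. Precision from reads covers counting error only. The limma p-values rest on the spread between 3 replicates per group, which the study calls biological. For each gene, limma draws this spread towards that of genes of similar expression, so the p-values do not measure the gene's own spread alone.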

Additional observations from a re-analysis of the deposited data

How the results depend on the processing

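All 25 called genes kept their direction in all 17 alternatives that were run. Of the genes not called, Gdf15, Jdp2 and Ddr2, which lie near 0, changed sign without some libraries. Of 591 values of listed genes under these alternatives, 524 stayed on their side of the threshold and 67 were no longer past it. Aldh18a1, Bcat1, Chac1, Cth, Psat1, Shmt2, Slc1a5 and Slc38a2 were past it throughout. Without a mean-variance trend 1440 of all genes were called, with 7 listed genes lower and 3 higher. With DESeq2 2183 genes were called, and 4 listed genes were higher, with no adjusted p for Fgf21, Gdf15 and Slc7a3. Leaving out libraries gave 1014 to 2813 called genes, 11 to 16 listed genes lower and 3 to 8 higher. The lowest counts came from removing a replicate of both groups, which leaves 2 libraries per group. Apart from these fits with fewer samples, the cause was not tested. Averaging replicates 1 and 2 of each group, chosen after seeing the data, gave 16 lower and 9 higher.

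Same-numbered libraries deviated from their group means with correlations of 0.0397, 0.0396 and 0.207 across 8271 genes. The mean was 0.0956 for same-numbered pairs, against -0.0474 for different-numbered pairs. The main test did not pair the libraries by number, and these correlations do not settle whether same-numbered libraries share a replicate effect. With the replicate block 16 listed genes were lower and 8 higher, without Fgf21. Depth limits Fgf21, Gdf15 and Slc7a3, and also Slc1a2 among the further transporters.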

Other observations

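Genes of endoplasmic reticulum folding and the other arms of the unfolded protein response, the neighbours of PERK, were also divided. Of 16 such genes, 5 fell (31.2%) and 3 rose (18.8%), beside 16.6% and 15.9% of all genes with a mean of at least 10 CPM, and the median log2 fold change was -0.089. Hspa5, the main chaperone of the endoplasmic reticulum, was at 1365 ± 14.4 CPM in siCtrl and 1066 ± 22.6 CPM in siAldoa (SD, n = 3, log2 fold change -0.36, adjusted p = 4.9e-09), Pdia6, a disulfide isomerase, at 498 ± 15.2 CPM in siCtrl and 412 ± 14.7 CPM in siAldoa (log2 fold change -0.27, adjusted p = 1.3e-05) and Calr, a calcium-binding chaperone, at 1306 ± 12.1 CPM in siCtrl and 1089 ± 14.3 CPM in siAldoa (log2 fold change -0.26, adjusted p = 4.3e-07). Herpud1, which acts in degradation of misfolded proteins, was higher at 45.9 ± 0.396 CPM in siCtrl and 60.6 ± 2.05 CPM in siAldoa (log2 fold change 0.39, adjusted p = 0.00049), as were Dnajb9, a co-chaperone and target of XBP1, at 13.2 ± 3.66 CPM in siCtrl and 19.0 ± 0.855 CPM in siAldoa (log2 fold change 0.53, adjusted p = 0.025) and Atf6, a sensor of unfolded protein, at 122 ± 3.55 CPM in siCtrl and 142 ± 4.39 CPM in siAldoa (log2 fold change 0.22, adjusted p = 0.0049). Manf, a secreted factor of the endoplasmic reticulum, at 82.4 ± 7.74 CPM in siCtrl and 70.5 ± 2.80 CPM in siAldoa (log2 fold change -0.22, adjusted p = 0.034), and Hsp90b1, a chaperone, at 442 ± 11.4 CPM in siCtrl and 390.4 ± 11.6 CPM in siAldoa (log2 fold change -0.18, adjusted p = 0.0015), were the other genes that fell. Without replicate 1, 2 and 3 of both groups 3, 3 and 4 genes were lower and 2, 1 and 0 higher. These adjusted p-values are from limma over all 18001 genes.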
